A study of Mus musculus with 10 samples.

Results

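The Hox genes encode homeodomain transcription factors that lie in 4 clusters, Hoxa, Hoxb, Hoxc and Hoxd. Members were the transcript clusters of the array whose annotation names a single gene of these clusters, with the brightest taken where a gene had several, which gave 37 Hox genes, among 19938 genes that had their own transcript cluster. Each of the 37 had exactly 1 transcript cluster. Cluster A gave 10 members, and clusters B, C and D gave 9 each. Hoxb8 was named only by a transcript cluster that it shares with Hoxb7, so it is not counted.

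Transcript levels were measured with Affymetrix Mouse Gene 1.0 ST arrays in hearts of mouse embryos at E10.5, with 5 WT (CAR +/+) and 5 CAR KO (CAR -/-) samples. Each sample held the RNA of 3 pooled hearts. All embryos were of the mouse line B6.Cg-Cxadrtm1/Fgr, and no group was treated. In CAR KO embryos Cxadr, the gene of the coxsackievirus and adenovirus receptor (CAR), is disrupted in the whole embryo. CAR is a cell adhesion molecule of the immunoglobulin superfamily, and its loss in the whole embryo is lethal at mid-gestation with malformed hearts. Nothing in the sources used here says whether samples came from separate litters, so that p-values measure the spread between these samples.

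Within each cluster the Hox genes are numbered by paralog group, and they tend to be switched on in that order, the low-numbered genes first and farther towards the head, the high-numbered genes later and in the trunk, tail and limbs. Retinoic acid signalling activates many of the low-numbered genes, TALE homeodomain proteins of the Pbx and Meis families bind DNA with Hox proteins, and Polycomb proteins keep the clusters silent where they are not used. In the embryonic heart, low-numbered Hox genes are known from second heart field progenitors that build the outflow tract and the inflow region, and from cardiac neural crest, while working heart muscle is not known for strong Hox expression.

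The genotype labels held for the targeted gene. The log2 signal of Cxadr was 8.38 ± 0.18 (SD, n = 5) over WT samples and 6.46 ± 0.17 (SD, n = 5) over CAR KO samples, without overlap, and the log2 fold change of -1.91 (standard error 0.10) had an adjusted p of 1.4e-05 from limma. It was the only one of 28944 transcript clusters with an adjusted p under 0.05, which is 0.00345% of those tested. As a check of the tissue, all 10 genes of a cardiomyocyte list, among them Tnnt2 and Nkx2-5, lay above background, and the list's mean log2 signal was between 12.53 and 12.88 in single samples. Array medians lay between 7.65 and 7.73 on the log2 scale. WT sample 5 and CAR KO sample 5 stood apart from the other 8 samples in the Hox values, and values without them are given beside the results they move.

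The 5 sequences that follow are the 250 bases before the transcription start of Hox genes, with at least 1 from each cluster. These genes stood high in WT sample 5 or CAR KO sample 5, and the values below turn on them and their neighbours. Only windows with a searched motif are shown. Hoxa5 and Hoxa13 also stood high in 1 of these samples, and their windows held none of the motifs. Hoxd8 was near background even in CAR KO sample 5, at 6.61. The sequences come from RefSeq (GRCm38.p6), are written 5′ to 3′ on the strand of the gene, and carry a searched motif in capitals. In Hoxa2 the capitals mark the Pbx-Hox motif TGATNNAT and the Meis motif TGACAG, in the others the retinoic acid receptor core motif AGGTCA. Motifs on the other strand appear as their reverse complement.
Hoxa2, chr6:52164832-52165081, minus strand: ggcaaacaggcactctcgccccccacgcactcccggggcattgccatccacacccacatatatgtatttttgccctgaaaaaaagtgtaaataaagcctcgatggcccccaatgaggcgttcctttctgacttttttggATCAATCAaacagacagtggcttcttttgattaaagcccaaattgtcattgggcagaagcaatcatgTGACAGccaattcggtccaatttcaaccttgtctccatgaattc
Hoxb4, chr11:96318017-96318266, plus strand: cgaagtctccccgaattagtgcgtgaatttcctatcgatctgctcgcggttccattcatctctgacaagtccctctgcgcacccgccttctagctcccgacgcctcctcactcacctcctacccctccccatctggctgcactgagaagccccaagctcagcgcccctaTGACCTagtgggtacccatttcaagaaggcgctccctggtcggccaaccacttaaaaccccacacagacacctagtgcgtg
Hoxc4, chr15:103034145-103034394, plus strand: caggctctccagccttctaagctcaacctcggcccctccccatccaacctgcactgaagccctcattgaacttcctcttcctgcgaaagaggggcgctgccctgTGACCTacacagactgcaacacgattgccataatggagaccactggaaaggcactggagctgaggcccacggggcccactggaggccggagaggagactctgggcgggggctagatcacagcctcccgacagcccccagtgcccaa
Hoxd3, chr2:74711743-74711992, plus strand: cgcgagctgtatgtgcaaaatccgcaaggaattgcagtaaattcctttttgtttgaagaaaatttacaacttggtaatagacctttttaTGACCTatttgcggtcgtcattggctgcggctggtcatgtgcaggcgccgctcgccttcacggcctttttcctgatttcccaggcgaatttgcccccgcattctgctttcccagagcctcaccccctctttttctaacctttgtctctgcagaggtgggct
Hoxd8, chr2:74704365-74704614, plus strand: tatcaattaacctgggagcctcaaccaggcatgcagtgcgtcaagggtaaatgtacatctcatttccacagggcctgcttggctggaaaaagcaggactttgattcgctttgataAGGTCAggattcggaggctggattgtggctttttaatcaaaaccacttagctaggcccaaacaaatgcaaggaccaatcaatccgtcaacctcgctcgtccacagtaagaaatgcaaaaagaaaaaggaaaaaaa

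Of the 37 genes, 21 had a promoter window in the RefSeq table used, with 23 windows in all. The letters AGGTCA on either strand were found in 6 of these 23, those of Hoxb4, Hoxc4, Hoxd3, Hoxd4, Hoxd8 and Hoxd10, against 14% of all 32851 windows. The Pbx-Hox motif TGATNNAT was in 3 of the 23 (Hoxa2, Hoxb1 and Hoxd11), against 7.68% of all windows. TGACAG was in those of Hoxa2 and Hoxa3, against 15.9%. Of the other motifs searched, the TATA box letters TATAAA were in 3 windows (Hoxa10, Hoxd4 and Hoxd13), against 12.4%, and the homeodomain core TAATTA was in 2, both of Hoxd11, against 4.84%. None of the motifs holds another within its letters, and a match describes the letters in a window, not a bound site.

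Hox transcripts above background were spread over all 4 clusters, with most of them in paralog groups 1 to 5. Background was set at a log2 signal of 6.51, the 95th percentile of the signals of 1210 odorant and vomeronasal receptor clusters, whose genes act in sensory neurons of the nose. By the mean over all 10 samples, 23 of the 37 Hox genes lay above it, beside 19745 of all 28944 transcript clusters. The 23 were 6 of 10 in cluster A, 9 of 9 in cluster B, 4 of 9 in cluster C and 4 of 9 in cluster D. By position it was 12 of 14 members of paralog groups 1 to 5, 4 of 7 of groups 6 to 8, and 7 of 16 of groups 9 to 13. The 14 below were Hoxa6, Hoxa10, Hoxa11, Hoxa13, Hoxc6, Hoxc10, Hoxc11, Hoxc12, Hoxc13, Hoxd1, Hoxd4, Hoxd8, Hoxd12 and Hoxd13.

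Most of these signals lay close to the limit. In every one of the 10 samples, 12 genes were above background: Hoxa4, Hoxa7, Hoxb1, Hoxb2, Hoxb3, Hoxb4, Hoxb5, Hoxb9, Hoxb13, Hoxc4, Hoxc5 and Hoxd11. In no sample were Hoxa10, Hoxa11, Hoxc11, Hoxc12, Hoxd1 and Hoxd12 above it. Against the stricter 99th percentile of the receptors (7.32), 6 genes were left, namely Hoxa4, Hoxb1, Hoxb2, Hoxb3, Hoxb5 and Hoxc5, all of paralog groups 1 to 5. Signals of different transcript clusters depend on their probes and were not compared with each other as amounts, and brightness served only to choose genes to name. A level above background says that a signal exceeded the 95th percentile of the receptor clusters. It does not show that the transcript was present, or which gene was the more abundant. Hoxa3, Hoxc8 and Hoxd10 are among the 23 through WT sample 5 or CAR KO sample 5, since their means over the other 8 samples, 6.43, 6.42 and 6.46, lay below the level, and 20 genes passed by those 8 samples.

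No Hox transcript passed the test between CAR KO and WT hearts. None of the 37 had an adjusted p under 0.05 from limma, against 0.00345% of all transcript clusters, and none had an unadjusted p under 0.05, against 2.4% of all transcript clusters. With all 10 samples, the values of the genotypes overlapped for all 37, and the share of all transcript clusters that overlap was not counted. The smallest unadjusted p was 0.0795, for Hoxc9, a gene of the posterior trunk, which had a log2 fold change of 0.27 and a 95% interval from -0.04 to 0.58. Without CAR KO sample 5 its log2 fold change was 0.12 (unadjusted p = 0.139). Hoxa9 and Hoxa10, of the trunk and the limbs, were next, with log2 fold changes of 0.20 (unadjusted p = 0.086) and 0.11 (unadjusted p = 0.0957). Hoxc9, Hoxa9 and Hoxa10 were named after their values were seen, and so was Hoxa3. Without WT sample 5 the genotypes did not overlap for Hoxa3, and how many of all transcript clusters did the same was not counted. Its WT values were then 6.26 to 6.37, all below background, and its CAR KO values 6.39 to 6.68. Its log2 fold change was then 0.24 (limma, unadjusted p = 0.00563, adjusted p = 0.9999), after 0.03 with all samples.

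By direction, the mean was higher in CAR KO for 27 of the 37 and lower for 10, beside 56.1% higher among all transcript clusters. The median log2 fold change, CAR KO minus WT, was 0.054 over the 37 and 0.040 over the 23 above background, beside 0.011 for all transcript clusters and 0.0034 for all 19745 above background. Over the 23 it was -0.0018 without CAR KO sample 5, 0.080 without WT sample 5 and 0.046 without both, and over the 37 it was 0.024, 0.080 and 0.035. The count of higher means was 22 without CAR KO sample 5, beside 58.6% of all transcript clusters. It was 31 without WT sample 5, beside 52.6%, and 26 without both, beside 57.2%. Single fold changes ran from -0.55 for Hoxa2 to 0.38 for Hoxc8, and both were set by 1 sample each, as given below. By cluster the median log2 fold change was 0.061 in A, 0.038 in B, 0.10 in C and 0.054 in D. In bulk samples such as these, fewer cells that express a gene and less RNA per cell cannot be told apart.

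How far a difference could still go is shown by the intervals. For 28 of the 37, among them 16 of the 23 above background, the 95% confidence interval of the log2 fold change stayed inside a 1.5-fold change up or down (0.58 on the log2 scale), and for 11, with 4 above background, within 1.2-fold. The 9 genes whose interval passed 1.5-fold were Hoxa2, Hoxa5, Hoxb2, Hoxb3, Hoxb4, Hoxc5, Hoxc6, Hoxc8 and Hoxc10. Widest was the interval of Hoxa2, from -1.82 to 0.73, then that of Hoxc8, from -0.58 to 1.33, and that of Hoxc5, from -1.15 to 0.48. For these 9 genes the intervals reach past a 1.5-fold change. Without WT sample 5 and CAR KO sample 5 the intervals of 4 genes did so, those of Hoxa2, Hoxa5, Hoxb2 and Hoxc5, and the log2 fold changes of Hoxc6 and Hoxc10 were 0.035 and -0.016, after 0.21 and 0.27 with all samples.

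**Figure D1:**
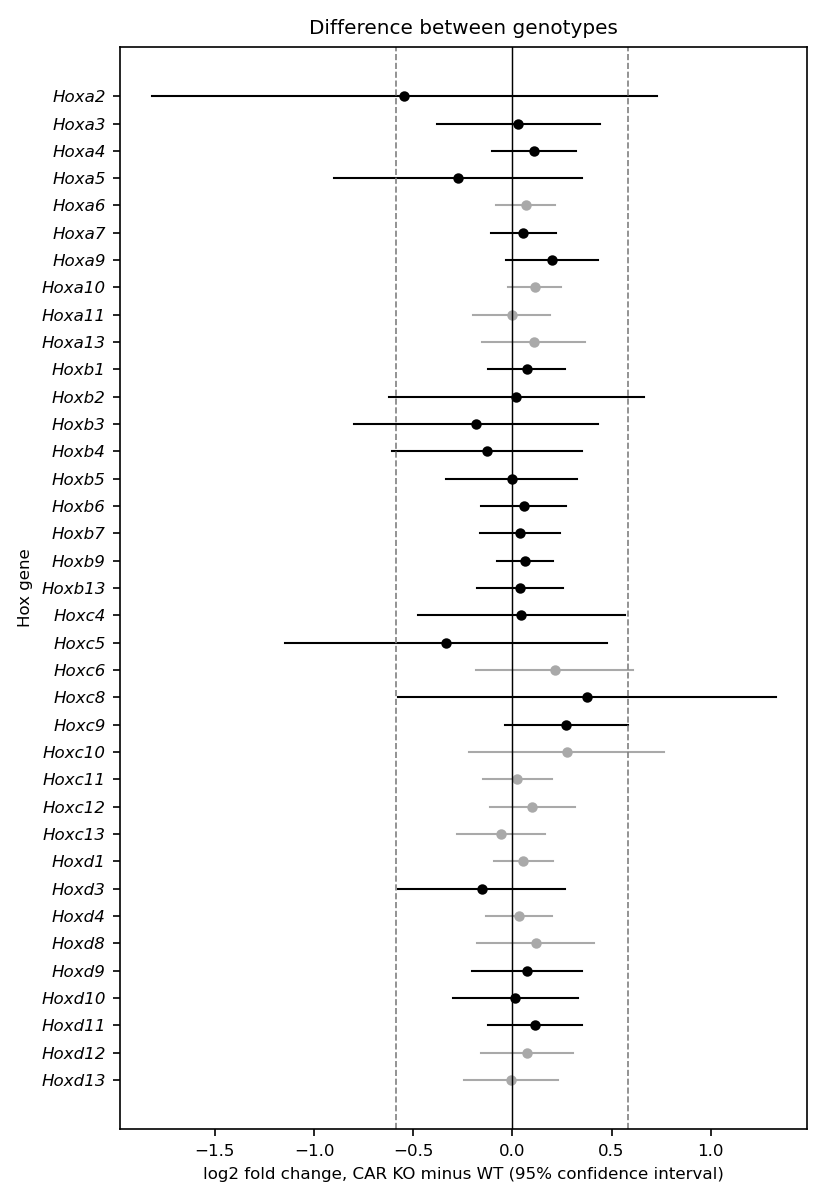
Difference in log2 signal, CAR KO minus WT, of the 37 Hox genes on the x axis (points) with the 95% confidence interval from limma (lines). Black marks the 23 genes above background and grey the other 14, dashed lines mark a 1.5-fold change in either direction, and every interval contains 0.

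Between samples of the same genotype, Hox transcripts had a larger median spread than all transcript clusters. The pooled SD within genotype had a median of 0.190 on the log2 scale over the 37 Hox genes, beside 0.135 for all transcript clusters, and 16 of the 37 lay over the 90th percentile of all transcript clusters. Over the 23 above background, a set that a high sample 5 helped some genes to enter, the median was 0.262. The range over the 10 samples was more than 1 on the log2 scale (2-fold) in 12 of the 37 genes, against 3.77% of all transcript clusters. Those 12 were Hoxa2, Hoxa3, Hoxa5, Hoxb2, Hoxb3, Hoxb4, Hoxc4, Hoxc5, Hoxc6, Hoxc8, Hoxc10 and Hoxd3. WT sample 5 was the highest of the 10 in 8 of them and CAR KO sample 5 in the other 4. The remaining 25 genes ranged over 0.28 (Hoxd1) to 0.97.

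**Figure D2:**
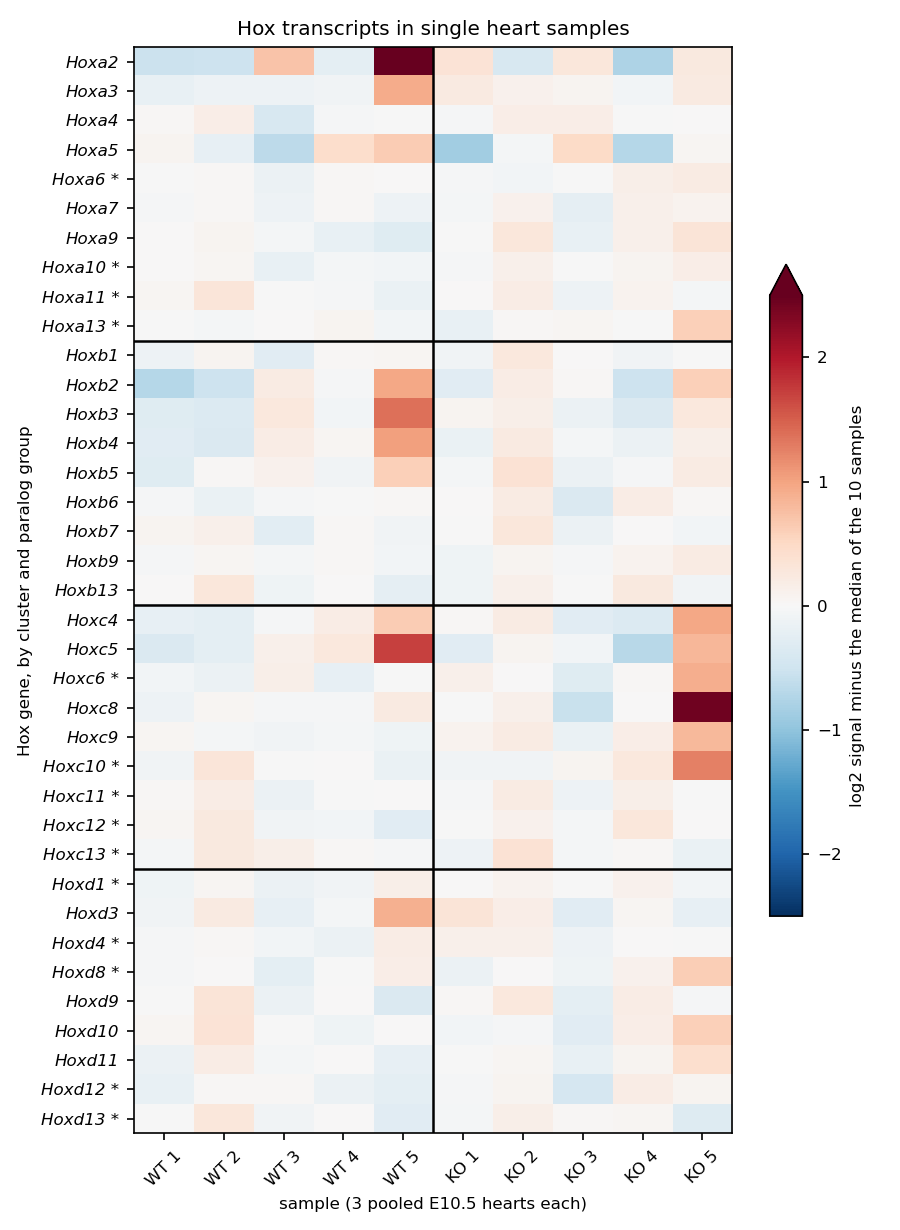
Log2 signal of each of the 37 Hox genes (rows, by cluster and paralog group) in each of the 10 samples (columns), minus the gene's median over the 10 samples, with red above and blue below that median. Asterisks mark the 14 genes not above background, and the darkest cells are Hoxa2 in WT sample 5, which lies past the end of the colour scale, and Hoxc8 in CAR KO sample 5.

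WT sample 5 carried more transcript of paralog groups 2 to 5 from all 4 clusters. For each gene its log2 signal was set against the median of the other 9 samples, and an excess over 0.5 on the log2 scale (1.41-fold) was counted, a limit set after the values were seen. In WT sample 5, 10 of the 37 Hox genes passed it, against 2.41% of all transcript clusters. These 10 were among the 12 members of paralog groups 2 to 5, and none of the 25 members of the other groups passed. Hoxa4, with an excess of -0.01, and Hoxd4, with 0.21, were the exceptions. The range 2 to 5 was drawn after the values were seen, and only 12 of the 25 others lay above background. By the ranges used for background, 10 of 14 members of groups 1 to 5 passed. It was 0 of 7 for groups 6 to 8 and 0 of 16 for groups 9 to 13. For Hoxa3 the median of the other 9 samples lay below background, so that its excess has only a lower bound. With such a median raised to the background level, all 10 still passed. The lowest excess inside the limit was 0.64 (Hoxb5) and the highest outside was 0.25 (Hoxc8).

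CAR KO sample 5 carried more transcript of a run of neighbouring genes in cluster C. Here 10 of the 37 passed the same limit, against 3.4% of all transcript clusters, and 6 of them were Hoxc4, Hoxc5, Hoxc6, Hoxc8, Hoxc9 and Hoxc10. These are 6 of the 9 members of cluster C, and the 3 that did not pass, Hoxc11, Hoxc12 and Hoxc13, lie at its far end. The other 4 were Hoxb2, Hoxd8, Hoxd10 and Hoxa13. For Hoxc6, Hoxc8, Hoxc10, Hoxd8, Hoxd10 and Hoxa13 the median of the other 9 samples lay below background, so that the excess has only a lower bound. With that median raised to the background level, 7 of the 10 still passed, and Hoxc6, Hoxd8 and Hoxa13 did not. Hoxb2, Hoxc4 and Hoxc5 passed in both samples, 20 genes passed in neither, and in each of the other 8 samples 0 to 2 genes passed.

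**Figure D3:**
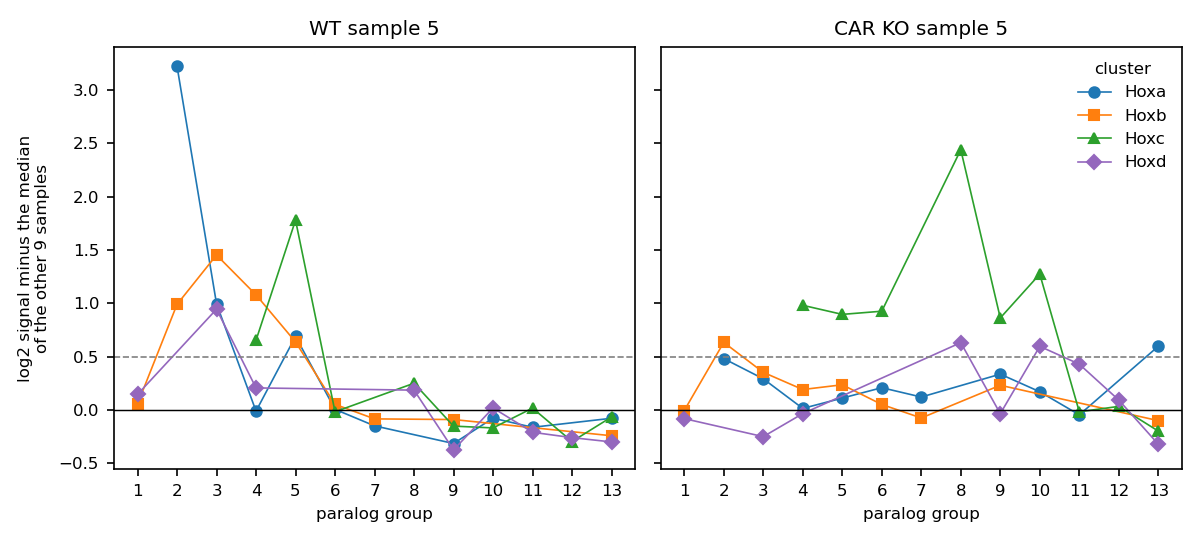
Excess of the log2 signal in WT sample 5 (left) and CAR KO sample 5 (right) over the median of the other 9 samples, against paralog group, for the 37 Hox genes, with 1 line per cluster and the limit of 0.5 dashed. In WT sample 5 the points above the limit lie in paralog groups 2 to 5 of all 4 clusters, and in CAR KO sample 5 the Hoxc line is above it from paralog group 4 to 10.

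Hoxa2, which patterns the hindbrain and the neural crest of the second pharyngeal arch, varied the most. Its log2 signal was 6.38, 6.39, 7.63, 6.67 and 9.89 in WT samples 1 to 5 and 7.25, 6.52, 7.19, 6.14 and 7.15 in CAR KO samples 1 to 5. WT sample 5 was far above all others, 9.36-fold over the median of the other 9, and the remaining WT values lay around the CAR KO values. The means were 7.39 ± 1.49 (SD, n = 5) over WT samples and 6.85 ± 0.49 (SD, n = 5) over CAR KO samples, with a log2 fold change of -0.55 (limma, adjusted p = 1.0, standard error 0.58). Without WT sample 5 the log2 fold change was 0.08. The pooled SD was 1.11, and 0.57 without WT sample 5 and CAR KO sample 5.

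Hoxb2, which acts with Hoxa2 in the hindbrain and in cranial neural crest, gave 7.71, 7.91, 8.62, 8.38 and 9.37 in WT samples 1 to 5 and 8.12, 8.61, 8.45, 7.89 and 9.02 in CAR KO samples 1 to 5. The highest sample of each genotype was its sample 5, and the genotypes covered nearly the same range. The log2 fold change was 0.02 (limma, adjusted p = 1.0, standard error 0.29), with means of 8.40 ± 0.66 (SD, n = 5) over WT samples and 8.42 ± 0.44 (SD, n = 5) over CAR KO samples. Without CAR KO sample 5 it was -0.13.

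Hoxb3, a hindbrain and pharyngeal arch gene, gave 7.99, 7.94, 8.55, 8.21 and 9.66 in WT samples 1 to 5 and 8.37, 8.44, 8.14, 7.92 and 8.56 in CAR KO samples 1 to 5. WT sample 5 lay above all others and the other 9 samples were mixed by genotype. The means were 8.47 ± 0.71 (SD, n = 5) over WT samples and 8.29 ± 0.25 (SD, n = 5) over CAR KO samples, and the log2 fold change was -0.18 (limma, adjusted p = 1.0, standard error 0.28). Without WT sample 5 it was 0.11.

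The paralogs of Hoxb3 in clusters A and D followed the same sample, and both were named after their values were seen. Hoxa3, needed for thymus, parathyroid and pharyngeal arch artery development, was between 6.26 and 6.68 in 9 samples and 7.39 in WT sample 5. Hoxd3, which shapes the upper cervical vertebrae together with its paralog, was between 6.36 and 6.96 in 9 samples and 7.54 in WT sample 5. Hoxb4, a gene of the hindbrain and cervical level, was between 6.67 and 7.23 in 9 samples and 8.05 in WT sample 5, and Hoxb5, of the cervical to upper thoracic level, was between 7.12 and 7.78 in 9 samples and 8.03 in WT sample 5. The excess of WT sample 5 over the median of the others was 1.92-fold for Hoxd3, 2.11-fold for Hoxb4 and 1.55-fold for Hoxb5, and for Hoxa3 it was at least 1.83-fold, against the background level.

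Hoxa4, of the cervical level, was flat. It was 8.10, 8.24, 7.67, 8.04 and 8.06 in WT samples 1 to 5 and 8.05, 8.24, 8.24, 8.05 and 8.08 in CAR KO samples 1 to 5. WT sample 3 was the lowest, and WT sample 5 lay in the middle. The log2 fold change was 0.11 (limma, adjusted p = 1.0, standard error 0.10), with means of 8.02 ± 0.21 (SD, n = 5) over WT samples and 8.13 ± 0.10 (SD, n = 5) over CAR KO samples, and its 95% confidence interval from -0.10 to 0.32 lay within 1.5-fold. Hoxb1, a gene of the hindbrain and of heart progenitors, likewise stayed between 7.35 and 7.90 in all 10 samples.

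Hoxa5, which acts in the lung and the cervical to upper thoracic skeleton, varied in another set of samples. It gave 6.95, 6.68, 6.22, 7.33 and 7.52 in WT samples 1 to 5 and 6.02, 6.83, 7.37, 6.17 and 6.94 in CAR KO samples 1 to 5. CAR KO samples 1 and 4 and WT sample 3 were low and below background, and WT samples 4 and 5 and CAR KO sample 3 were high. With means of 6.94 ± 0.52 (SD, n = 5) over WT samples and 6.66 ± 0.56 (SD, n = 5) over CAR KO samples, the log2 fold change was -0.28 (limma, adjusted p = 1.0, standard error 0.29). Leaving out 1 sample at a time moved it between -0.46 (without WT sample 3) and -0.11 (without CAR KO sample 1), and weights per array gave -0.54. Its pooled SD was 0.54, and 0.55 without WT sample 5 and CAR KO sample 5. The same 3 low samples were the lowest of the 10 in the mean of a sinus venosus and inflow list of 12 genes, with 10.11 in CAR KO sample 4, 10.39 in CAR KO sample 1 and 10.54 in WT sample 3, against at most 10.96. Within that list Osr1, Nr2f2 and Shox2 were low in these samples, while Tbx18 was 10.13 and Tbx5 11.88 in WT sample 3 and Gata4 was 12.58 in CAR KO sample 1, which were not low values for these genes. The part of that region in the Hoxa5 values was not tested.

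Hoxc4 and Hoxc5, of the cervical and upper thoracic level, were high in both sample 5s. Hoxc4 gave 6.67, 6.62, 6.85, 7.05 and 7.50 in WT samples 1 to 5 and 6.90, 7.07, 6.60, 6.53 and 7.83 in CAR KO samples 1 to 5. Each genotype had its highest value in sample 5, and the other 8 samples lay together. The log2 fold change was 0.05 (limma, adjusted p = 1.0, standard error 0.24), with means of 6.94 ± 0.36 (SD, n = 5) over WT samples and 6.99 ± 0.52 (SD, n = 5) over CAR KO samples, and -0.17 without CAR KO sample 5.

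Hoxc5 gave 6.95, 7.07, 7.45, 7.57 and 9.02 in WT samples 1 to 5 and 7.02, 7.38, 7.24, 6.62 and 8.13 in CAR KO samples 1 to 5. The highest value was WT sample 5, 3.43-fold over the median of the other 9, and the next was CAR KO sample 5. Its means were 7.61 ± 0.83 (SD, n = 5) over WT samples and 7.28 ± 0.56 (SD, n = 5) over CAR KO samples, with a log2 fold change of -0.33 (limma, adjusted p = 1.0, standard error 0.37). Leaving out WT sample 5 gave 0.02.

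Hoxc8, which acts at the thoracic level and in limb-level motor neurons, was near background in all samples but one. It gave 6.37, 6.55, 6.47, 6.47 and 6.73 in WT samples 1 to 5 and 6.48, 6.62, 5.94, 6.51 and 8.92 in CAR KO samples 1 to 5. CAR KO sample 5 was at least 5.30-fold over the other 9, taken at the background level because their median lay below it, and CAR KO sample 3 was the lowest. The means were 6.52 ± 0.13 (SD, n = 5) over WT samples and 6.89 ± 1.16 (SD, n = 5) over CAR KO samples, and the log2 fold change was 0.38 (limma, adjusted p = 1.0, standard error 0.44). Without CAR KO sample 5 it was -0.13. Its pooled SD of 0.83 was 0.22 without both sample 5s.

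The neighbours of Hoxc8 were high in the same sample, and were named after their values were seen. Hoxc6, of the thoracic and forelimb level, was between 5.65 and 6.09 in 9 samples and 6.87 in CAR KO sample 5. Hoxc9 was between 6.45 and 6.81 in 9 samples and 7.42 in CAR KO sample 5. Hoxc10, of the lumbar and hindlimb level, was between 6.16 and 6.63 in 9 samples and 7.58 in CAR KO sample 5. Hoxc6 and Hoxc10 were thus over the background level in CAR KO sample 5 although their means were below it, and Hoxd8, at 6.61 in CAR KO sample 5 and at most 6.16 elsewhere, did the same.

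Hoxd9 and Hoxd11 passed the limit in neither sample 5. Hoxd9, of the lumbar and limb level, gave 6.75, 7.08, 6.62, 6.77 and 6.39 in WT samples 1 to 5 and 6.78, 7.02, 6.50, 6.93 and 6.73 in CAR KO samples 1 to 5. WT samples 2 and 5 were the highest and the lowest, with the CAR KO samples between them. The log2 fold change was 0.07 (limma, adjusted p = 1.0, standard error 0.13), with means of 6.72 ± 0.25 (SD, n = 5) over WT samples and 6.79 ± 0.20 (SD, n = 5) over CAR KO samples.

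Hoxd11, which patterns the forearm and the sacral skeleton, gave 6.93, 7.25, 7.02, 7.07 and 6.86 in WT samples 1 to 5 and 7.06, 7.12, 6.88, 7.13 and 7.49 in CAR KO samples 1 to 5. CAR KO sample 5 was the highest, followed by WT sample 2, and the genotypes overlapped. The log2 fold change was 0.11 (limma, adjusted p = 1.0, standard error 0.11), with means of 7.02 ± 0.15 (SD, n = 5) over WT samples and 7.14 ± 0.22 (SD, n = 5) over CAR KO samples. Hoxb9 ranged over 0.31 on the log2 scale, the smallest range among the 23 genes above background.

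**Figure D4:**
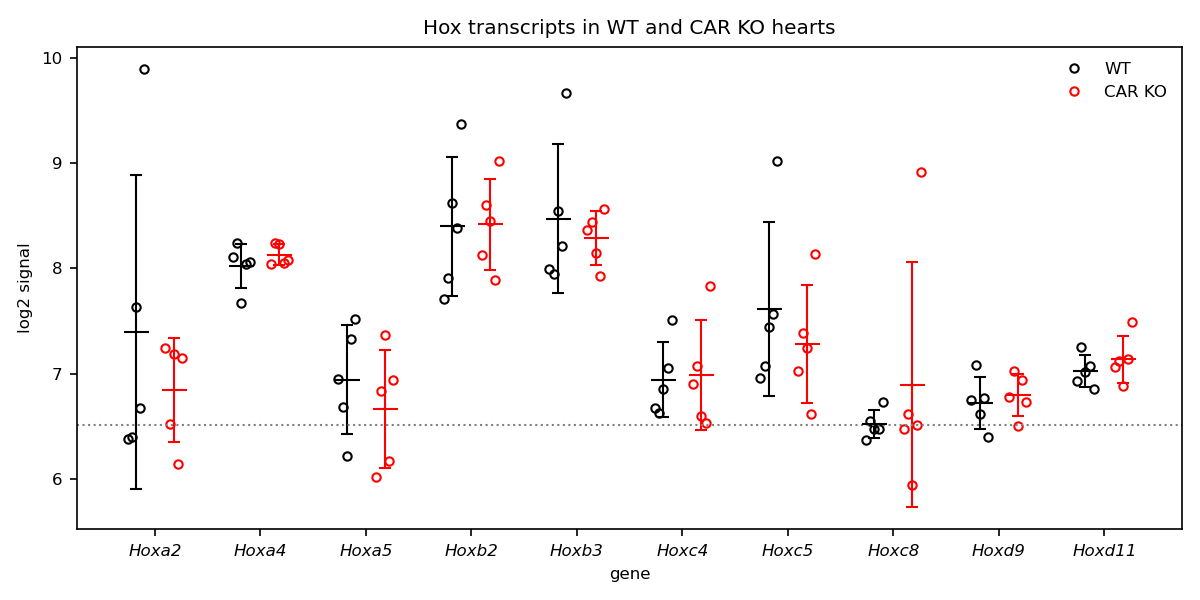
Log2 signal of the 10 Hox genes described in every sample, with 1 circle per sample of 3 pooled hearts, WT in black and CAR KO in red, horizontal bars for the mean and error bars for the SD (n = 5), and the background level dotted. The circles of the genotypes overlap for every gene, and single samples stand apart for Hoxa2 and Hoxb3 in WT and for Hoxc8 in CAR KO.

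Of the non-coding transcripts of the clusters, 1 passed the limit in WT sample 5 and none in CAR KO sample 5. Hoxaas2, a long non-coding RNA between Hoxa2 and Hoxa3, was 7.88 in WT sample 5 and between 6.45 and 6.90 in the other 9 samples. Hottip, a long non-coding RNA at the other end of cluster A, stayed between 5.62 and 6.10. The transcript clusters of Mir10a and Mir10b, microRNAs beside the group 4 genes, stayed between 3.49 and 3.82 and between 3.77 and 4.13, below background. The transcript cluster that Hoxb8 shares with Hoxb7 ranged from 5.74 to 6.26.

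Some marker genes of tissues other than the heart were high in the same samples. A list of limb, body wall and somite mesoderm markers had 20 measured genes, 18 of them above background. Its mean log2 signal was 7.68, 7.82, 7.94, 7.90 and 8.59 in WT samples 1 to 5 and 7.84, 7.91, 7.92, 7.70 and 8.33 in CAR KO samples 1 to 5, and the 8 samples other than both sample 5s lay between 7.68 and 7.94. In WT sample 5, 11 of the 20 genes were over the limit of 0.5, against 2.41% of all transcript clusters. In CAR KO sample 5 it was 8, against 3.4%. Somite markers did not move together in WT sample 5. The excess over the other 9 samples was 2.21 for Meox2, 1.0 for Pax9, 0.66 for Meox1 and 0.52 for Pax1, and it was 0.08 for Pax3, -0.07 for Tcf15 and -0.17 for Uncx. Meox2 was 8.66 there and at most 6.71 elsewhere, and Tbx15, a body wall and skeletal factor, was 8.25 there and at most 5.90, below background, elsewhere. In CAR KO sample 5 the hindlimb factors Pitx1 and Tbx4 were the highest, with 9.63 and 9.32, against at most 8.09 and 8.65 elsewhere.

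Epithelial and liver transcripts were high in these samples too. A foregut and lung bud list of 11 genes had a mean of 8.49 in WT sample 5 and 8.63 in CAR KO sample 5, against 7.64 to 8.34 in the other 8 samples, with 4 and 6 genes over the limit. These were Foxa1 and the epithelial genes Epcam, Cdh1 and Cldn6 in both, with the keratins Krt8 and Krt18 in CAR KO sample 5. Nkx2-1, Foxa2, Shh and Sox17, which define foregut and lung bud, had an excess between -0.04 and 0.20 in WT sample 5 and between -0.35 and 0.14 in CAR KO sample 5. The liver and yolk sac list of 15 genes, 14 of them above background, had a mean of 7.34, 9.05, 7.55, 7.56 and 9.23 in WT samples 1 to 5 and 8.52, 7.67, 6.91, 7.0 and 10.24 in CAR KO samples 1 to 5, with 14 genes over the limit in each sample 5. Of all transcript clusters, 2.41% were over the limit in WT sample 5 and 3.4% in CAR KO sample 5. WT sample 2 was high in liver transcripts too, and 0 Hox genes were over the limit there.

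A list of neural tube and neural crest genes had 14 measured members, 9 of them above background. Its mean was 7.41 in WT sample 5 and 7.05 in CAR KO sample 5, against 7.04 to 7.17 in the other samples. In WT sample 5, 5 of its genes were over the limit, against 2.41% of all transcript clusters. Tubb3, Pax6, Olig2, Dcx and Foxd3 of this list were not above background by their means. A second heart field and outflow list of 11 genes had its highest mean, 9.14, in WT sample 5, against at most 8.93. The cardiomyocyte list had its lowest means in both sample 5s, 12.53 and 12.54, against 12.74 to 12.88. The endothelium and endocardium list of 10 genes was lowest there too, with 10.65 and 10.47 against 10.69 to 10.88, and the blood list of 9 genes highest, with 10.40 in both against 9.91 to 10.17. The part of other tissues in the Hox values was not tested. Without both sample 5s the median pooled SD of the 37 Hox genes was 0.170, beside 0.117 for all transcript clusters.

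**Figure D5:**
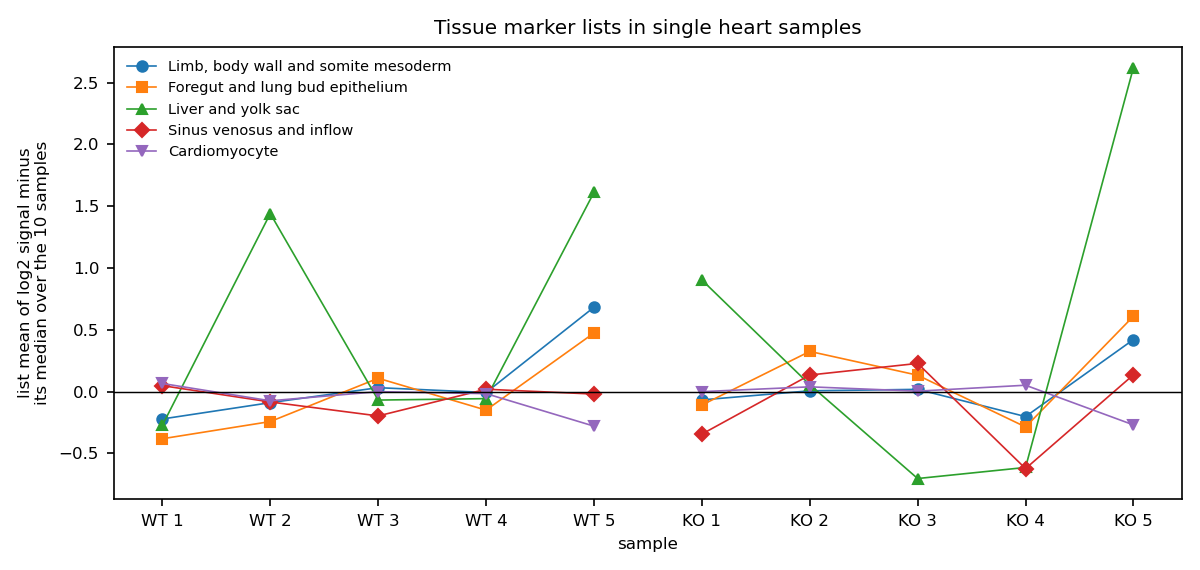
Mean log2 signal of 5 marker lists in each of the 10 samples, minus the median over the samples. WT sample 5 and CAR KO sample 5 have the highest limb, body wall and somite mesoderm and foregut values and the lowest cardiomyocyte values, and WT sample 2 is high in the liver and yolk sac list alone.

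No partner or regulator of Hox proteins in 4 lists passed the test at an adjusted p under 0.05. Of the TALE homeodomain cofactors, 8 of 9 had a transcript cluster, all 8 lay above background and none had an unadjusted p under 0.05, with a median log2 fold change of -0.026. Meis2 was between 12.25 and 12.71 and Pbx3 between 11.38 and 11.66 over all samples, and none of the 8 was over the limit in either sample 5. Of 24 Polycomb and Trithorax genes, all above background, none had an adjusted p under 0.05. An unadjusted p under 0.05 was found for 1 of them, against 2.4% of all transcript clusters. That gene was Cbx8, a Polycomb subunit, with a log2 fold change of -0.14 (limma, adjusted p = 1.0, standard error 0.06). The brightest of the 24, the histone-binding proteins Rbbp7 and Rbbp4, had log2 fold changes of 0.14 and 0.09, and none of the 24 was over the limit in either sample 5.

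A list of Cdx genes with Evx1, Evx2, Mnx1, Gsx1, Gsx2, Pdx1 and Gdf11 gave 10 measured members, 6 above background. None had an adjusted p under 0.05. Against 2.4% of all transcript clusters, 1 of the 10 had an unadjusted p under 0.05. This was Gdf11, a secreted factor that sets the trunk to tail transition, with 9.50 ± 0.08 (SD, n = 5) over WT samples and 9.65 ± 0.09 (SD, n = 5) over CAR KO samples and a log2 fold change of 0.15 (limma, adjusted p = 1.0, standard error 0.06). Cdx1, an activator of Hox genes, was between 7.77 and 8.17 in all samples, with a log2 fold change of 0.02.

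Among 17 measured genes of retinoic acid synthesis, breakdown and reception, 16 above background, none had an adjusted p under 0.05. Aldh1a2, which makes retinoic acid in the epicardium and the inflow region, had an unadjusted p of 0.00663. It was 10.54, 10.65, 11.00, 11.12 and 11.31 in WT samples 1 to 5 and 10.49, 10.81, 10.29, 9.97 and 10.21 in CAR KO samples 1 to 5. Values were lower in CAR KO on average and the genotypes overlapped, with a log2 fold change of -0.57 (limma, adjusted p = 1.0, standard error 0.17). An epicardium and mesothelium list that includes Aldh1a2 had 5 of its 10 genes lower in CAR KO at an unadjusted p under 0.05, against 2.4% of all transcript clusters in either direction, and its mean was between 9.79 and 10.06 in WT and between 9.47 and 9.99 in CAR KO, and the part of that tissue was not tested. Rara, a retinoic acid receptor, gave a log2 fold change of -0.04.

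In WT sample 5, 8 of the 17 were over the limit, against 2.41% of all transcript clusters. They were Aldh1a2, Rdh10, Dhrs3, Crabp1, Crabp2, Stra6, Rarg and Rxrg. In CAR KO sample 5 it was 2, against 3.4%, namely the retinoic acid binding proteins Crabp1 and Crabp2. Stra6, a retinol transporter, was 9.56 in WT sample 5 and at most 8.38 elsewhere. Whether these genes and the Hox genes moved in the same cells was not tested, since the samples are whole hearts.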

How the data were processed

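RNA of 10 samples (5 WT and 5 CAR KO, 3 pooled E10.5 hearts each) was hybridised to Affymetrix Mouse Gene 1.0 ST arrays. The deposited table holds log2 signals made by the authors, in 35556 rows. The submitters' processing notes name MAS5, and how the scanner output became this table is not stated in the sources used. Samples were grouped by the genotype in their labels. After 6612 control rows were left out, 28944 transcript clusters entered a comparison of CAR KO with WT in limma 3.58.1 under R 4.3.3. It used lmFit and eBayes without a trend or a filter, p-values were adjusted over all clusters by Benjamini-Hochberg, and the threshold was 0.05. Precision is limited by the number of arrays, and arrays compress the folds of dim genes. The fit was tested on simulated data. Array builds are not named, so coordinates are given only for RefSeq sequences. Figures were drawn with matplotlib 3.10.9.

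Gene symbols come from the platform annotation, and all 37 Hox genes matched RefSeq by Entrez identifier. Values in every sample are given for Hox genes above background with an unadjusted p under 0.05 (none), the 6 with the largest pooled SD and the 2 brightest of each cluster. Of the partner lists, members with an unadjusted p under 0.05 and the 2 brightest are named. Other genes were chosen after their values were seen. The members and lists were chosen with earlier results of these data known. Alternatives were quantile normalization, a filter on dim clusters, an intensity trend with robust prior, weights per array, the methods' t-test after Benjamini-Hochberg, a block for the sample number, other background levels, and leaving out samples.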

Additional observations from a re-analysis of the deposited data

Results flagged for a closer look

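For each Hox gene, the Cxadr transcript and each genotype, the gap between the highest or lowest sample and its nearest neighbour was divided by the range of the genotype's 5 samples, and a ratio over Dixon's 95% critical value was noted. This was so in 5 of 76 groups, and chance alone gives about 1 in 20, here 3.8. Hoxa3 in WT had sample 5 highest, with a ratio of 0.906. Hoxc8 and Hoxc10 in CAR KO had sample 5 highest, with ratios of 0.771 and 0.741. Hoxa6 in WT had sample 3 lowest (0.792), with values between 6.28 and 6.46 on the log2 scale, and Hoxb1 in CAR KO had sample 2 highest (0.739), with values between 7.55 and 7.90.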

How the results depend on the processing

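No Hox gene had an adjusted p under 0.05 under any alternative run, leaving out each sample included. Cxadr stayed lower in CAR KO, with a log2 fold change between -1.97 and -1.84 over the fits that left out 1 sample. The count of Hox genes with an unadjusted p under 0.05 was 0 in the fit reported, 2 (Hoxa3 and Hoxd1) without WT samples 2 and 5 and CAR KO sample 5, 1 (Hoxa3) without WT sample 5 and CAR KO sample 5 (chosen after seeing the data), and 0 to 3 when 1 sample was left out. Over all transcript clusters that count was 696, against 1811 with array weights, 1304 with a replicate block, 1214 without WT samples 2 and 5 and CAR KO sample 5, and 411 without WT sample 4, and with array weights 2 transcript clusters had an adjusted p under 0.05. Among the Hox genes it was 3 (Hoxa9, Hoxc9 and Hoxd12) without CAR KO sample 3 and 1 (Hoxa3) without WT sample 5. The 23 Hox genes above background became 6 at the 99th percentile of the receptors, 12 when every sample had to pass, and 20 to 23 with 1 sample left out. The median pooled SD of 0.262 was 0.190 without WT sample 5 and CAR KO sample 5.

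Among the Hox genes described in every sample, none past the threshold, log2 fold changes changed sign as follows. Beyond which samples a fit left out, the cause was not tested. With array weights, which kept all 10 samples, Hoxb2 gave -0.11 and Hoxc4 -0.071. Without WT samples 2 and 5 and CAR KO sample 5, Hoxc4 gave -0.085 and Hoxc8 -0.050. Without WT sample 5 and CAR KO sample 5, Hoxa2 gave 0.0044, Hoxb3 0.046, Hoxc4 -0.025, Hoxc8 -0.078 and Hoxd11 -0.018. Of the remaining Hox genes, Hoxa13 (-0.033), Hoxb4 (0.062), Hoxb5 (0.095), Hoxc10 (-0.016), Hoxd3 (0.081) and Hoxd10 (-0.13) changed sign in that fit too. With 1 sample left out, values ran from -0.80 to 0.080 for Hoxa2, -0.15 to 0.26 for Hoxb2, -0.32 to 0.11 for Hoxb3, -0.17 to 0.19 for Hoxc4, -0.55 to 0.018 for Hoxc5, -0.13 to 0.62 for Hoxc8 and -0.0081 to 0.16 for Hoxd9.

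With a replicate block for the sample number, 0 Hox genes had an adjusted p and 0 an unadjusted p under 0.05. The deviations of same-numbered samples correlated at 0.20, 0.47, 0.33, 0.07 and 0.56 over all transcript clusters. The best match of 4 of 5 CAR KO samples was the like-numbered WT sample. In the reverse direction, WT samples 1, 3 and 5 had their best match in the like-numbered CAR KO sample, and WT samples 2 and 4 did not. The labels do not say what a number marks and 1 correlation was not above 0.1, so that the block was kept as an alternative. Taking the dimmest transcript cluster of a gene changed nothing, since each Hox gene has 1.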
